A study of Rattus norvegicus with 12 samples.

Results

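Ventricular cardiomyocytes of newborn rats that had been held under pulsatile stretch for 6 h were compared with unstretched cells of the same kind. The comparison takes the 3 arrays titled as 6 h of stretch and the 3 titled as control, which are 6 of the 12 arrays of the series, and on them the 14376 genes that passed a filter on low signal, of 22079 named genes on the array. The other 6 arrays held cells stretched for 2 or 24 h, and they enter below only where the change at 6 h was set against those times. All cells were seeded in serum-containing medium on silicone membranes coated with type I collagen. The stretched groups then received pulsatile biaxial strain, and the control cells lay unstretched on plates of the same kind. No drug, transgene or mutation is named for any group, and neither the rat strain nor the time for which the control plates were kept is given. The 3 samples of a group are labelled as biological replicates without saying whether they came from separate cell isolations, so the p-values measure the spread between these cultures. RNA was labelled with the dye Cy3 and hybridised to Agilent rat arrays of 60-base probes, 1 sample per array.

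Heart muscle cells sense strain at the Z-disc, where neighbouring contractile units meet, at the intercalated disc that joins cells end to end, and at the integrin contacts with the matrix. Strain is known to raise intracellular calcium and to activate kinases and the phosphatase calcineurin, and then to switch on immediate early genes, natriuretic peptides and fetal contractile genes, a programme taken as a culture model of the overloaded heart. Preparations from newborn hearts also hold fibroblasts, macrophages, vascular and epicardial cells, which answer to strain in their own ways.

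Levels are given as scaled intensity, the probe's background-subtracted brightness after each array was set to the same 75th percentile, so that they can be compared between arrays for one gene but not between genes. A change is the difference of group means on the log2 scale, 6 h minus control, with the standard error from limma's model of all 12 arrays. Genes with a limma p below 0.05 after Benjamini-Hochberg adjustment over all 14376 count as called, and "rose" or "fell" is used for those alone. In the 6 arrays the 75th percentile of raw signal lay between 1256 and 1464, and 66.2% to 70.6% of spots were well above background, with 0 spots saturated. Correlations across genes were 0.9976 to 0.9980 between control arrays, 0.9971 to 0.9975 between 6 h arrays and 0.9953 to 0.9961 between the groups. The third 6 h array lay on the second slide, with the 24 h arrays, and the other 5 shared the first slide.

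At 6 h, 2408 genes were called, 16.8% of those tested. Of these, 728 rose (5.06%) and 1680 fell (11.7%), and the 3 arrays of each group did not overlap for 5659 genes (39.4%). Most changes were small: the median size was 0.27 among genes that rose and 0.33 among those that fell, and 30 called genes (0.209%) changed at least 2-fold, 7 up and 23 down. With the slide as a block, which takes the third 6 h array out of the contrast, 1600 genes were called and with the first slide alone 1350. Leaving out each array in turn gave 1195 (without 6 h replicate 1) to 2083 calls (without control replicate 1). The balance of rises and falls depended on the scaling. Falls made up 69.8% of calls with the 75th percentile, 26.3% with array medians, 49.4% with quantile normalization and 0.686% when arrays were set by the spike-in probes, which moved the median of all genes from -0.05 to 0.43. Every direction below is therefore relative to the other genes on the array, and changes under spike-in scaling are read relative to that shift. Of 2036 probes without a gene name that were tested apart, 34 (1.67%) were called. The gene lists below were chosen with earlier results of these data known. A list's share of calls is therefore set beside that of all genes as a description and not as a test.

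**Figure D1:**
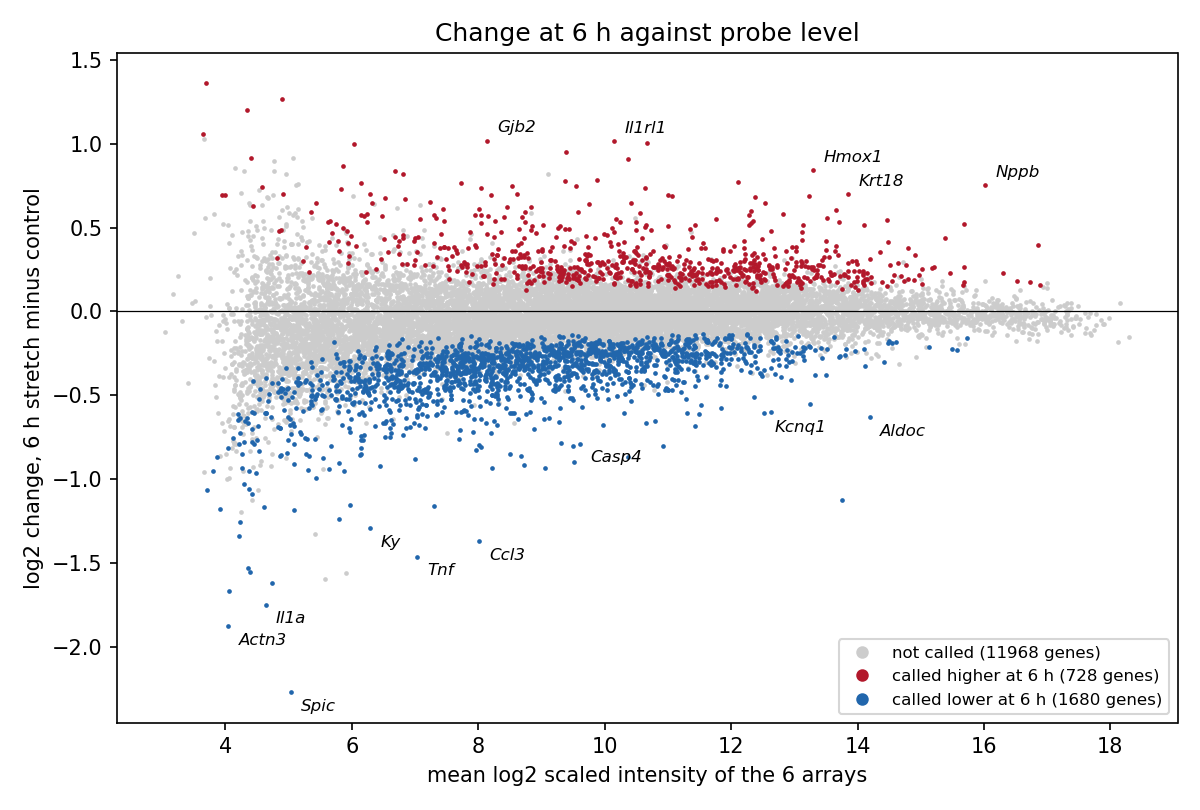
Log2 change at 6 h against control (vertical axis) for each of the 14376 genes, against its mean log2 scaled intensity over the 6 arrays (horizontal axis). Red points are the 728 genes called higher, blue points the 1680 called lower and grey points genes not called; the largest falls lie among the dimmest probes.

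**Figure D2:**
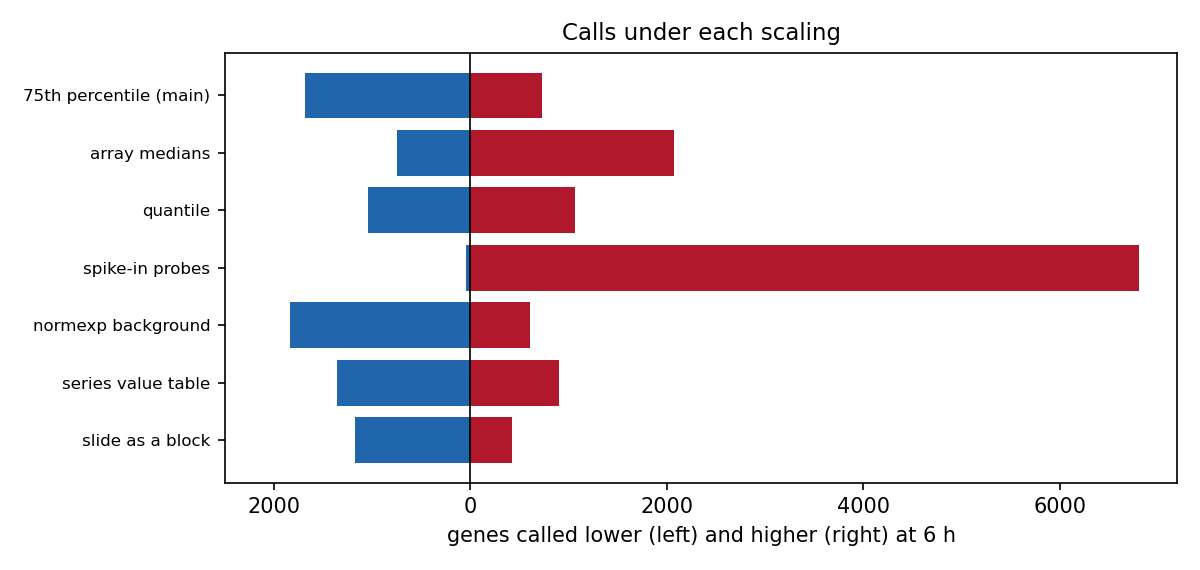
Number of genes called lower (blue, to the left) and higher (red, to the right) at 6 h under each scaling and with slide as a block. The 2408 calls split into 728 higher and 1680 lower with the 75th percentile, and into 6808 higher and 47 lower with the spike-in probes.

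The labelled cell type was checked against its markers. All 20 cardiomyocyte markers were measured, their summed scaled intensity was 1170000 to 1250000 on the control arrays and 1140000 to 1200000 at 6 h, and 1 was called (5%, against 16.8% of all genes). This was Smpx, a small muscle protein linked to stretch, with log2 change 0.26 ± 0.07 (SE), adjusted p = 0.0246, but 0.0901 without control replicate 3, 0.099 without 6 h replicate 1 and 0.0617 with 6 h replicate 3 left out. Markers of other cells were present in both groups. The 17 measured fibroblast markers summed to 281000 to 301000 in the controls and 270000 to 292000 at 6 h. Of these 2 fell (11.8%, against 11.7% of all genes), Pdgfrb (-0.26) and Thy1 (-0.42). The list had 1 called without control replicate 1, 0 without 6 h replicate 1, 1 without 6 h replicate 2 and 1 with 6 h replicate 3 left out. The 15 measured macrophage and leukocyte markers summed to 33600 to 34400 in the controls and 31400 to 34200 at 6 h. Of these 2 fell, that is 13.3% against 11.7% of all genes. The 2 that fell were Ptprc, the pan-leukocyte phosphatase CD45 (log2 change -0.42 ± 0.08 (SE), adjusted p = 0.00675), and the integrin chain Itgam (log2 change -0.34 ± 0.08 (SE), adjusted p = 0.0151, but 0.0565 without control replicate 3, 0.0555 without 6 h replicate 1 and 0.0522 with 6 h replicate 3 left out), and 0 of the 15 lay above 0. The macrophage markers Cd163, Mrc1 and C1qc and the T-cell marker Cd3e did not pass the filter on low signal. Among 14 measured endothelial markers 0 were called, although 13 lay below 0 (median -0.22) and the sums, 6900 to 7170 and 5990 to 6420, did not overlap. In limma 6 of the 14 had an unadjusted p below 0.05, 4 were called lower with normexp, and leaving out 6 h replicate 2 gave 2 calls. Of 13 smooth muscle and pericyte markers, Abcc9 (-0.66), Myh11 (-0.53) and Smtn (-0.37) fell (23.1%), with 1 called without control replicate 2, 1 without control replicate 3 and 1 with 6 h replicate 2 left out. In whole-culture RNA, fewer cells of a type and less RNA per cell cannot be told apart. Epicardial markers split, with the keratin Krt18 higher (0.70) and Gpm6a, Lrrn4 and Upk3b lower (-0.51, -0.36 and -0.30), of which Lrrn4 and Upk3b lost their calls without control replicate 2, control replicate 3 or 6 h replicate 1, and Upk3b also without control replicate 1 or 6 h replicate 2.

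Calls among stretch and hypertrophy markers were rises with 1 exception. Of 26 measured, 14 rose and 1 fell (median log2 change 0.34), that is 57.7% called against 16.8% of all genes, and leaving out any 1 array left 13 or more called. Nppb encodes brain natriuretic peptide, the standard marker of wall stress, and its probe lies at chr5:165062879-165062938 on rn4. Its scaled intensity was 55600, 47900 and 50100 on the control arrays and 85000, 84400 and 88700 on the 6 h arrays, with no overlap between the groups (log2 change 0.75 ± 0.08 (SE), adjusted p = 0.000649). Il1rl1 encodes ST2, the receptor for interleukin 33, whose soluble form is a clinical marker of heart strain. Its values were 790, 834 and 776 on the control arrays and 1600, 1520 and 1730 on the 6 h arrays, about 2.02-fold higher with no overlap (log2 change 1.01 ± 0.09 (SE), adjusted p = 0.000398). Acta1, the skeletal isoform of actin that fetal hearts express, read 10200, 10100 and 11400 on the control arrays and 16800, 16400 and 15000 on the 6 h arrays (log2 change 0.60 ± 0.07 (SE), adjusted p = 0.000856), so that even the lowest stretched array was above the highest control. Nppa, the atrial natriuretic peptide, was not called: its values were 63200, 56500 and 60700 on the control arrays and 54500, 56600 and 59000 on the 6 h arrays, and the groups overlapped (log2 change -0.08 ± 0.06 (SE), adjusted p = 0.373).

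Further members with a place in strain sensing at the Z-disc or in calcineurin signalling also rose. Xirp2, which cross-links actin at the intercalated disc, read 719, 716 and 729 on the control arrays and 1250, 1120 and 1360 on the 6 h arrays (log2 change 0.78 ± 0.15 (SE), adjusted p = 0.00693). Ankrd1, a nuclear and titin-bound sensor of strain, read 111000, 95300 and 104000 on the control arrays and 138000, 129000 and 141000 on the 6 h arrays (log2 change 0.40 ± 0.06 (SE), adjusted p = 0.00222). Rcan1, a calcineurin target that feeds back on the phosphatase, read 10200, 8980 and 9890 on the control arrays and 14600, 13900 and 14200 on the 6 h arrays (log2 change 0.55 ± 0.07 (SE), adjusted p = 0.000966). All 3 genes were higher on each stretched array than on any control array. Tnfrsf12a, the receptor for the cytokine TWEAK, rose by 0.69 (8620, 6380 and 7860 on the control arrays and 12400, 11400 and 12800 on the 6 h arrays). Gdf15, a secreted stress factor, was not called at 6 h and its groups overlapped (log2 change 0.28 ± 0.12 (SE), adjusted p = 0.118). Myh6 and Myh7, the fast and slow cardiac myosin heavy chains, were also not called, at -0.07 and -0.13, nor was the calcium pump gene Atp2a2, at -0.05. A further Atp2a2 probe changed by 0.18.

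**Figure D3:**
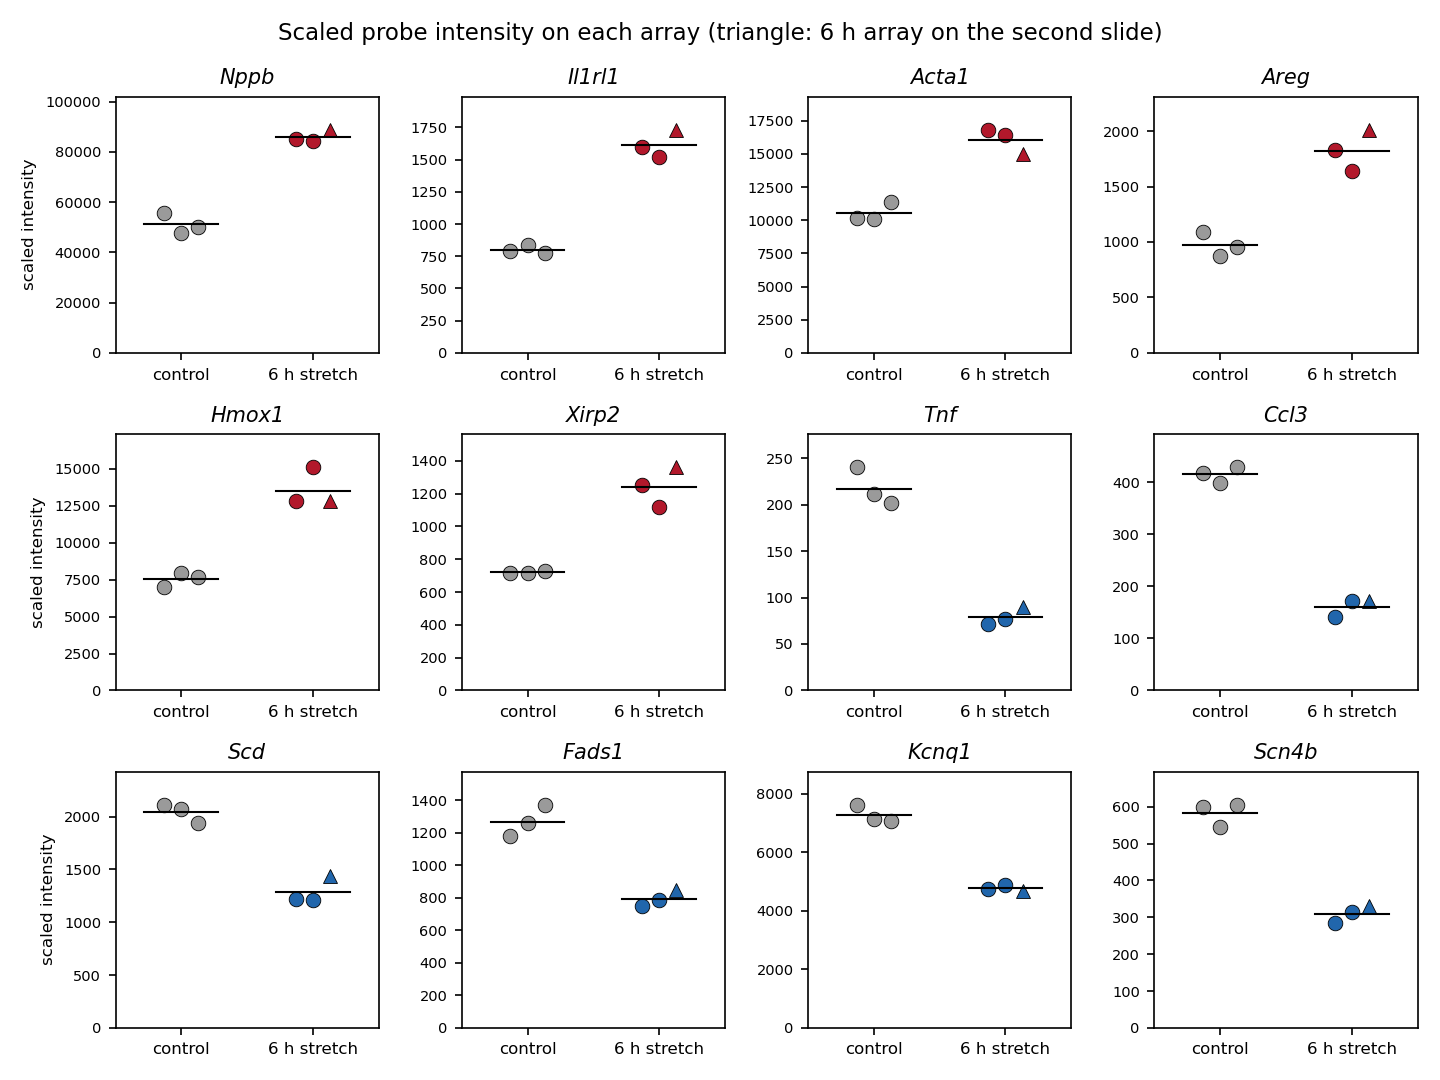
Scaled intensity (vertical axes, each from 0) of 12 genes on the 3 control arrays (grey) and the 3 arrays at 6 h (red where the gene was called higher, blue where lower); bars are geometric means and the triangle is the 6 h array on the second slide. In all 12 genes the groups do not overlap, and the triangle lies with the other 6 h arrays.

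The promoters of Nppb and Acta1 are printed because both genes are textbook targets of TEAD factors, which bind the motif called MCAT. Each is the 300 bases from 250 before to 50 after the start site in RefSeq's rat assembly GRCr8, on the gene's own strand, with matches to CATTCC on either strand in capitals. The Nppb window is chr5:163699758-163700057 on the plus strand and the Acta1 window chr19:68784145-68784444 on the minus strand.
Nppb promoter: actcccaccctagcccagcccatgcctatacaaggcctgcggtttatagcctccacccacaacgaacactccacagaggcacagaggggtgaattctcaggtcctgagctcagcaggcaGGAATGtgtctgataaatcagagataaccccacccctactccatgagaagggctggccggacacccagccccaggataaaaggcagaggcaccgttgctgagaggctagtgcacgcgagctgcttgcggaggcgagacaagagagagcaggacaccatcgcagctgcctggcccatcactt
Acta1 promoter: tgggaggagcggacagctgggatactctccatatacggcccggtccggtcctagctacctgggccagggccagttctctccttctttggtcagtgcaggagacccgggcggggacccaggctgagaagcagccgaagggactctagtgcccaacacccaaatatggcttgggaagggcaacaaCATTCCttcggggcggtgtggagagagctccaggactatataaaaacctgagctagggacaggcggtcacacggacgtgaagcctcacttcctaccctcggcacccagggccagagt
Each window held 1 match, starting 131 bases before the start site in Nppb and 67 before it in Acta1. Of 23 stretch and hypertrophy markers with a promoter in the table, 8 (34.8%) held MCAT, against 13.9% of all 27457 promoters and 11.3% of those of genes tested, while the share was 10.6% among genes called higher and 11.7% among those called lower. The share was as high in lists that did not lean to rises: 35.3% of chemokines (6 of 17) and 40% of YAP and TEAD genes (6 of 15). A match is a string of letters and not a measured binding site.

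Of 21 measured Z-disc and intercalated disc genes, 7 rose and 1 fell (median log2 change 0.09), that is 38.1% called against 16.8% of all genes. The list had 5 called without control replicate 2, 3 without control replicate 3, 3 without 6 h replicate 1 and 5 with 6 h replicate 3 left out. Pdlim3, which binds alpha-actinin at the Z-disc, read 3660, 3080 and 3380 on the control arrays and 5830, 5570 and 5840 on the 6 h arrays without overlap (log2 change 0.77 ± 0.08 (SE), adjusted p = 0.000792). A further Pdlim3 probe changed by 0.32. Lmcd1, a LIM protein that acts with calcineurin, read 1320, 1210 and 1180 on the control arrays and 2030, 1880 and 2300 on the 6 h arrays (log2 change 0.74 ± 0.08 (SE), adjusted p = 0.000838). Cavin4, a muscle caveolar protein, and Filip1, a filamin partner, gave changes of 0.53 and 0.33. Neither passed when the slide was a block, at adjusted p = 0.0594 and 0.0532, nor without control replicate 3 or 6 h replicate 1, and Filip1 lost its call without any 1 of the 6 arrays. With normexp Cavin4 changed by 0.06 (adjusted p = 0.72). Of 25 measured sarcomere genes 1 rose and 4 fell, that is 20% called against 16.8% of all genes. The sarcomere list had 3 called without control replicate 2, 1 without control replicate 3, 2 without 6 h replicate 1 and 2 with 6 h replicate 3 left out. The gene that rose was Lmod2, an actin filament nucleator (log2 change 0.42 ± 0.07 (SE), adjusted p = 0.00467), and Myom2, the M-band protein myomesin 2, fell (log2 change -0.30 ± 0.07 (SE), adjusted p = 0.0172, but 0.0601 without control replicate 2, 0.0669 without control replicate 3, 0.0657 without 6 h replicate 1 and 0.05 with 6 h replicate 2 left out). Rnd1, which loosens the actin skeleton and rounds cells, read 508, 428 and 513 on the control arrays and 961, 811 and 1030 on the 6 h arrays (log2 change 0.95 ± 0.11 (SE), adjusted p = 0.000856). Enah, an actin polymerisation factor of the intercalated disc, read 970, 1040 and 1020 on the control arrays and 1490, 1410 and 1500 on the 6 h arrays (log2 change 0.53 ± 0.07 (SE), adjusted p = 0.000994). Neither gene's groups overlapped.

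Microtubule genes moved as well. Of 24 tubulins, stathmins and kinesins, 8 rose and 2 fell (median log2 change 0.05), that is 41.7% called against 16.8% of all genes. Tubb3 and Tuba4a, a beta and an alpha tubulin, rose by 0.53 and 0.38, with 24900, 24200 and 25900 on the control arrays and 33700, 31000 and 32600 on the 6 h arrays for Tuba4a. Mapt, the microtubule-binding protein tau, fell and read 716, 683 and 704 on the control arrays and 529, 524 and 543 on the 6 h arrays (log2 change -0.40 ± 0.05 (SE), adjusted p = 0.000968). A further Mapt probe changed by -0.18. Stmn4, a tubulin-sequestering stathmin, had a change of 0.76, yet its groups overlapped, and it lost its call when the slide was a block (adjusted p = 0.126) and without any 1 array except 6 h replicate 2.

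Calls among genes for secreted ligands and their receptors went both ways. Areg and Hbegf, membrane-shed ligands of the EGF receptor, were the 2 called among 12 measured genes of that family. That is 16.7% called against 16.8% of all genes, and 4 were called without control replicate 1 and 4 with array medians. Areg read 1090, 873 and 957 on the control arrays and 1830, 1640 and 2010 on the 6 h arrays (log2 change 0.91 ± 0.11 (SE), adjusted p = 0.000936), and Hbegf 1090, 1070 and 1130 on the control arrays and 1750, 1600 and 1810 on the 6 h arrays (log2 change 0.65 ± 0.05 (SE), adjusted p = 0.000346), each without overlap. Adm, the vasodilator adrenomedullin, read 4600, 4950 and 4710 on the control arrays and 7600, 7400 and 7300 on the 6 h arrays (log2 change 0.64 ± 0.05 (SE), adjusted p = 0.000346). It belongs to a list of 27 other growth factors, of which 2 rose and 6 fell (29.6% called), with 4 called without 6 h replicate 1. With array medians 3 rose and 2 fell. The neurotrophin Ntf3 was among those that fell (-0.47). In the TGF-beta, BMP and activin list 6 of 33 rose and 3 fell (27.3% called), with 5 called without 6 h replicate 1. Fstl3, an activin antagonist, read 1230, 1220 and 1240 on the control arrays and 2010, 1770 and 1770 on the 6 h arrays (log2 change 0.59 ± 0.07 (SE), adjusted p = 0.000856), and Pmepa1, which dampens TGF-beta signals, rose by 0.52. Gjb2, the gap-junction protein connexin 26, was the largest rise among genes above background on all 6 arrays: 197, 187 and 211 on the control arrays and 340, 401 and 474 on the 6 h arrays (log2 change 1.02 ± 0.10 (SE), adjusted p = 0.000582). Gja1, connexin 43, the main ventricular connexin, was not called (log2 change -0.08 ± 0.05 (SE), adjusted p = 0.317).

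Immediate early and stress-induced transcription factors moved in part. Of 18 AP-1 and ATF factors 6 rose and 0 fell (33.3% called, against 16.8% of all genes), with 3 called without 6 h replicate 1. Atf3, a stress-induced repressor, read 1170, 1100 and 1180 on the control arrays and 2290, 2270 and 2380 on the 6 h arrays, 2.01-fold higher without overlap (log2 change 1.01 ± 0.11 (SE), adjusted p = 0.000856). Fosl1, the AP-1 subunit FRA1, read 303, 268 and 286 on the control arrays and 479, 502 and 457 on the 6 h arrays (log2 change 0.75 ± 0.12 (SE), adjusted p = 0.00307). Fos itself, a classical immediate early gene, was not called at 6 h (301, 220 and 242 on the control arrays and 278, 276 and 294 on the 6 h arrays, overlapping, adjusted p = 0.331). Egr1 was not called either, at -0.15. In the list of Egr, Nr4a and Klf factors and their companions, 5 of 20 rose and 4 fell (45% called). Myc, the growth regulator, was the largest rise (2580, 2150 and 2250 on the control arrays and 3230, 3240 and 3450 on the 6 h arrays, log2 change 0.51 ± 0.08 (SE), adjusted p = 0.00242). Klf2 and Klf4, Krüppel-like factors, and Egr2, a zinc-finger factor, changed by -0.49, -0.31 and -0.44.

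Nearly all calls in a list of nucleolar ribosome assembly genes and Myc-related factors were rises. Of 65 measured, 29 rose and 1 fell (median log2 change 0.18), or 46.2% called against 16.8% of all genes. Of the Myc-related factors, Max rose (0.20) and Mxd4 was the 1 that fell (-0.21). The list had 18 called without 6 h replicate 1 and 18 with 6 h replicate 3 left out, and 17 rose and 1 fell when the slide was a block. Nop2, an rRNA methyltransferase, read 3570, 3490 and 3620 on the control arrays and 4510, 4430 and 4750 on the 6 h arrays (log2 change 0.36 ± 0.04 (SE), adjusted p = 0.000968). Gnl3, nucleostemin, a GTPase of large-subunit assembly, read 6540, 6830 and 6560 on the control arrays and 8120, 8840 and 8590 on the 6 h arrays (log2 change 0.36 ± 0.07 (SE), adjusted p = 0.00818). Gar1, of the pseudouridylation particle, and Heatr1, of the small-subunit processome, had the largest changes, 0.44 and 0.40. Nop2, Gnl3, Gar1 and Heatr1 were each higher on every stretched array. Of the ribosomal proteins themselves 0 of 61 were called in limma, 1 had an unadjusted p below 0.05, and their changes ran from -0.17 to 0.07. Of 33 genes of polyamine, nucleotide and one-carbon synthesis 5 rose, that is 15.2% called against 16.8% of all genes. The largest rise was in Amd1, which makes the donor for polyamines (3320, 3450 and 3180 on the control arrays and 4210, 4320 and 4230 on the 6 h arrays, log2 change 0.36 ± 0.04 (SE), adjusted p = 0.00104). The list had 2 called without control replicate 1, 3 without control replicate 2, 2 without control replicate 3, 1 without 6 h replicate 1 and 1 with 6 h replicate 3 left out, while 11 rose with array medians. Of 26 amino acid and glucose transporters 4 rose and 5 fell (34.6% called, with 4 called without control replicate 3 and 4 with 6 h replicate 1 left out). Slc7a1, an arginine carrier, was at 0.39 and Slc43a1, a leucine carrier, at -0.46.

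The promoters of Nop2 and Gnl3 are shown with the E-box CACGTG, the motif of Myc with its partner Max, in capitals. The windows, from RefSeq's GRCr8, are chr4:159618716-159619015 on the plus strand and chr16:6219733-6220032 on the minus strand.
Nop2 promoter: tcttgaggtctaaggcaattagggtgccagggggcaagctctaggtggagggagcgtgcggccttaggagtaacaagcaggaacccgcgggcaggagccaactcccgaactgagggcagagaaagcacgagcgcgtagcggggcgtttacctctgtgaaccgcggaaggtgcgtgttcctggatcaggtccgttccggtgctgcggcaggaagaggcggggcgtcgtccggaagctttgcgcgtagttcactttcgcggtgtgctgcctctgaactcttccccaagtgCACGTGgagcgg
Gnl3 promoter: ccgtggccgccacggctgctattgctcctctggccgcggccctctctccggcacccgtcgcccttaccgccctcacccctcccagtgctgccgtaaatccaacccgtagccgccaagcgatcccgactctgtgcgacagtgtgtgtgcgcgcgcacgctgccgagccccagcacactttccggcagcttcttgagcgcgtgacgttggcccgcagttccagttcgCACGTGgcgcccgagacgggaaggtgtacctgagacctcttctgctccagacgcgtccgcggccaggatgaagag
Each held 1 match, which starts 38 bases after the start site in Nop2 and 25 before it in Gnl3. The motif, which is its own reverse complement, was present in 21 of 59 promoters of the nucleolar and Myc-related list (35.6%) against 6.65% of all promoters, 9.44% of those of genes tested, 13.4% of those of genes called higher and 8.31% of those called lower. Max and Mxd4 were among these 21.

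Chaperones rose without exception among the calls. Of 29 heat-shock and chaperone genes, 10 rose and 0 fell (34.5% called, against 16.8% of all genes), and 28 lay above 0 (median 0.17, against -0.05 over all genes). Leaving out 1 array left 7 or more called, the first slide alone gave 5, and array medians gave 19. Hsph1, the large co-chaperone HSP105, read 203, 207 and 214 on the control arrays and 328, 291 and 335 on the 6 h arrays (log2 change 0.61 ± 0.09 (SE), adjusted p = 0.00237). Chordc1, an HSP90 co-chaperone, read 7250, 7660 and 7840 on the control arrays and 11100, 9560 and 11000 on the 6 h arrays (log2 change 0.47 ± 0.07 (SE), adjusted p = 0.00204). Dnajb5 read 344, 334 and 331 on the control arrays and 478, 430 and 511 on the 6 h arrays (log2 change 0.49 ± 0.07 (SE), adjusted p = 0.00148). Hspa1b, the inducible HSP70, rose less firmly (log2 change 0.45 ± 0.12 (SE), adjusted p = 0.0302, but 0.0968 without control replicate 2, 0.0724 without control replicate 3, 0.0974 without 6 h replicate 1 and 0.0862 with 6 h replicate 3 left out). Of 28 genes of the integrated stress and unfolded protein responses 2 rose and 2 fell, that is 14.3% called against 16.8% of all genes. Nupr1 and Trib3, both targets of ATF4, were the 2 that fell (-0.51 and -0.39), whereas Atf4, counted with the AP-1 and ATF factors, rose by 0.25.

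The Hsph1 and Chordc1 promoters carry matches to the heat-shock element, the binding motif of heat-shock factors made of inverted GAA units, marked in capitals. In RefSeq's GRCr8 the windows are chr12:10427118-10427417 and chr8:23650571-23650870, both on the plus strand.
Hsph1 promoter: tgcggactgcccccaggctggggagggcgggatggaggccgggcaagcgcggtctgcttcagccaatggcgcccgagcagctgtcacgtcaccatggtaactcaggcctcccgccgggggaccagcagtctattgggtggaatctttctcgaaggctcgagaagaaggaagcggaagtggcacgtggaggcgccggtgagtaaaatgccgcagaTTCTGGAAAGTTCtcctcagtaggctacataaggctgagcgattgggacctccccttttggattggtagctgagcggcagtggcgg
Chordc1 promoter: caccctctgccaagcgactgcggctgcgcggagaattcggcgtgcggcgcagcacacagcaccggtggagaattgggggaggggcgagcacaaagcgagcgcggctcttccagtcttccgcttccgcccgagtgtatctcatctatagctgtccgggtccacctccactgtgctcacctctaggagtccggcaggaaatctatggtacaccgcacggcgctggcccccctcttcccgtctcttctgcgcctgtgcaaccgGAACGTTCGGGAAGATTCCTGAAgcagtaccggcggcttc
Hsph1 held 1 match, starting 36 bases before the start site, and Chordc1 3 overlapping ones just after it, the first starting 10 bases downstream. In the chaperone list 6 of 24 promoters (25%) held the element against 0.736% of all promoters and 0.432% of those of genes tested, and the share was 1.12% for genes called higher and 0.168% for those called lower.

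Antioxidant genes and targets of NRF2, a transcription factor of the response to oxidants, rose in part. Of 34 measured, 9 rose and 0 fell (26.5% called, against 16.8% of all genes), with 5 called without 6 h replicate 2, and 15 rose with array medians. Hmox1, haem oxygenase 1, read 7000, 7980 and 7680 on the control arrays and 12800, 15100 and 12800 on the 6 h arrays, all above the controls (log2 change 0.84 ± 0.13 (SE), adjusted p = 0.00267). Srxn1, sulfiredoxin, read 5900, 6190 and 5660 on the control arrays and 8360, 9580 and 8660 on the 6 h arrays (log2 change 0.58 ± 0.11 (SE), adjusted p = 0.0076), and Slc40a1, the iron exporter ferroportin, 1590, 1920 and 1640 on the control arrays and 2560, 2470 and 2290 on the 6 h arrays (log2 change 0.51 ± 0.09 (SE), adjusted p = 0.00486). Duox2, a hydrogen peroxide-producing oxidase that is not in this list, was dim but above background on all 6 arrays. It read 40.7, 51.3 and 48 on the control arrays and 92.6, 103 and 83.9 on the 6 h arrays (log2 change 1.00 ± 0.16 (SE), adjusted p = 0.00301), and the change was 0.32 with normexp background correction (adjusted p = 0.14).

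**Figure D4:**
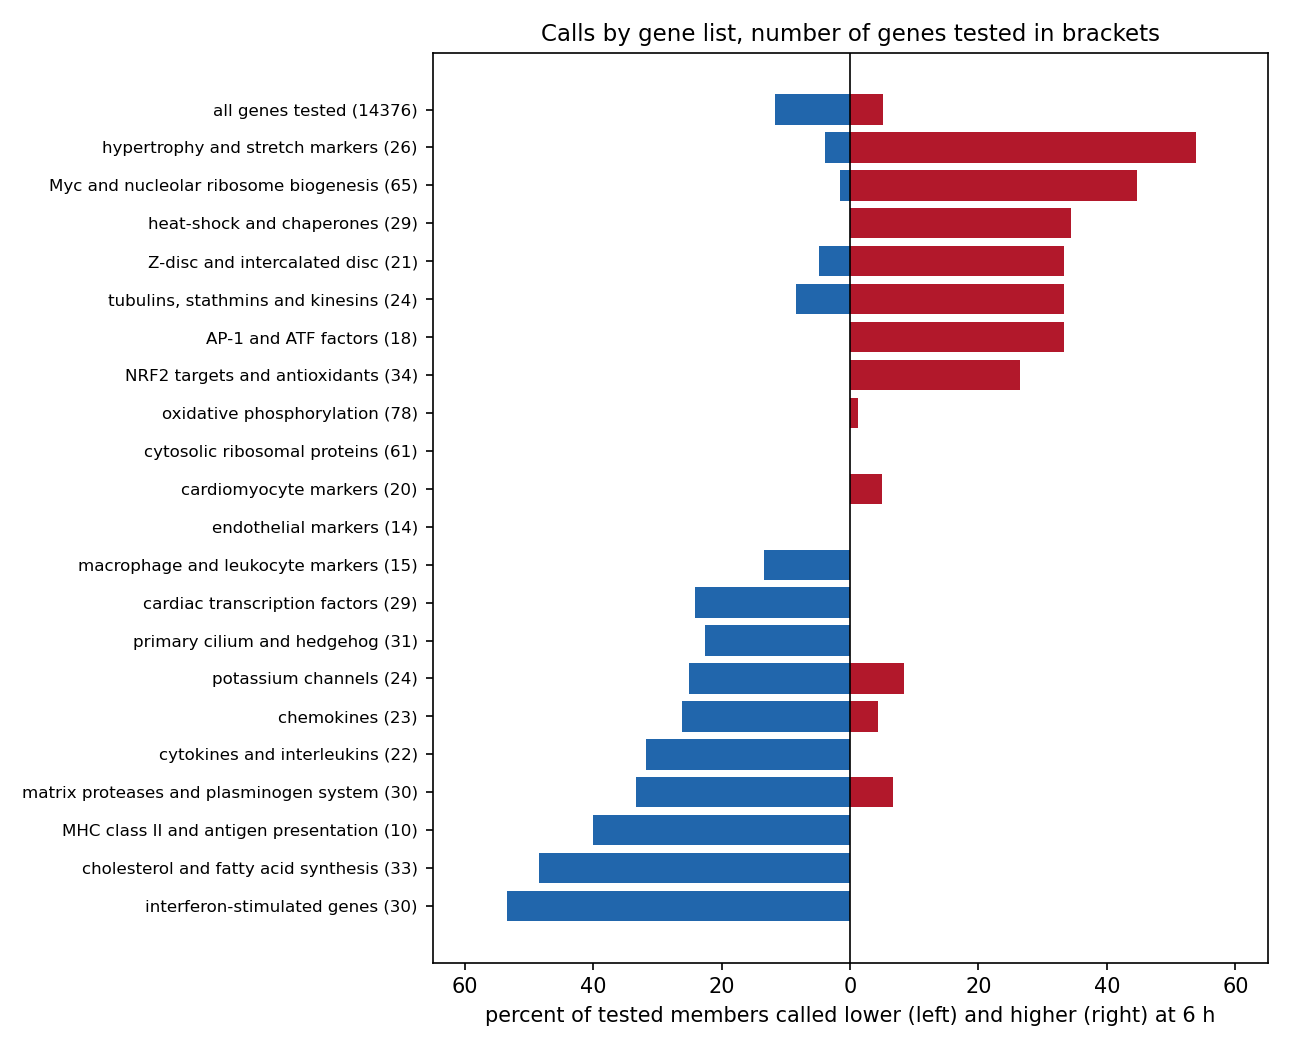
Percent of tested members called lower (blue, to the left) and higher (red, to the right) at 6 h in 21 gene lists and, in the top bar, among all 14376 genes. Stretch markers, nucleolar and Myc-related genes and chaperones lean to the right, interferon-stimulated and lipid synthesis genes to the left, and ribosomal proteins and endothelial markers show 0 calls.

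Most calls among electrical genes of the myocyte were falls, as were 69.8% of all calls. Of 24 potassium channel genes 2 rose and 6 fell, that is 33.3% called against 16.8% of all genes. The list had 5 called without control replicate 1 and 5 with 6 h replicate 2 left out. Kcnq1, which carries the slow delayed rectifier that repolarises the heart, read 7620, 7130 and 7060 on the control arrays and 4750, 4890 and 4680 on the 6 h arrays (log2 change -0.61 ± 0.05 (SE), adjusted p = 0.000346). Kcnh2, the rapid delayed rectifier, read 1170, 1320 and 1220 on the control arrays and 865, 875 and 946 on the 6 h arrays (log2 change -0.47 ± 0.05 (SE), adjusted p = 0.000923). Kcnk13, a pore-forming gene of the leak-channel family, went the other way, 240, 215 and 242 on the control arrays and 372, 340 and 419 on the 6 h arrays (log2 change 0.70 ± 0.08 (SE), adjusted p = 0.000856). None of the 3 genes overlapped between groups. Kcne1, the beta subunit of Kcnq1, was above background on 0 control arrays and 2 of the 6 h arrays, and its change (log2 change 0.70 ± 0.18 (SE), adjusted p = 0.0274, but 0.0836 without control replicate 1, 0.0802 without control replicate 3, 0.0853 without 6 h replicate 2 and 0.0675 with 6 h replicate 3 left out) turned to -0.15 with normexp. Of 14 sodium, chloride and pacemaker channel genes 5 fell and 1 rose (42.9% called). Scn4b, a sodium channel beta subunit, read 600, 546 and 605 on the control arrays and 285, 315 and 331 on the 6 h arrays (log2 change -0.91 ± 0.12 (SE), adjusted p = 0.00118), and the one that rose was its relative Scn3b (log2 change 0.49 ± 0.10 (SE), adjusted p = 0.0111). Calcium cycling genes gave 0 rises and 4 falls of 25, that is 16% called against 16.8% of all genes, among them Camk2g, a calmodulin kinase (-0.37), and Hrc, a calcium binder of the reticulum (-0.31), with 2 called without control replicate 3 and 2 with 6 h replicate 1 left out. Under array medians the median of this list, and of the sodium, chloride and pacemaker list, turned from -0.08 to 0.02 and from -0.09 to 0.01. Of 24 adrenergic and muscarinic genes 2 fell (8.33%, against 11.7% of all genes), the alpha-1B adrenoceptor Adra1b among them (-0.39). Of 9 angiotensin and endothelin genes 2 fell (22.2%), among them the angiotensin receptor Agtr1a (-0.44), with 1 called without control replicate 3 and 1 with 6 h replicate 1 left out and 1 with array medians. Pde2a, a phosphodiesterase for cyclic AMP and GMP, read 3580, 3500 and 3610 on the control arrays and 2370, 2270 and 2630 on the 6 h arrays (log2 change -0.56 ± 0.06 (SE), adjusted p = 0.000667). Of 14 candidate stretch-activated channels 3 fell (21.4%), Kcnk2, Piezo1 and Trpc6 (-0.40, -0.29 and -0.24), with 1 called without control replicate 2, 1 without control replicate 3, 0 without 6 h replicate 1 and 1 with 6 h replicate 2 left out, and with array medians the list's median was 0.00106.

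Of 29 cardiac transcription factors 7 fell and 0 rose (24.1% lower, against 11.7% of all genes), with 4 called without 6 h replicate 1. With array medians 1 rose and 3 fell, and the list's median of -0.09 was 0.01. Irx4, a ventricle-specific homeobox factor, read 4610, 4440 and 4390 on the control arrays and 2910, 3080 and 3010 on the 6 h arrays (log2 change -0.58 ± 0.08 (SE), adjusted p = 0.00127). Nfatc4, a calcineurin-dependent factor, fell (log2 change -0.37 ± 0.07 (SE), adjusted p = 0.0075). Of 31 genes of the primary cilium and hedgehog pathway 7 fell and 0 rose (22.6% lower), with 4 called without control replicate 2 and 3 with 6 h replicate 1 left out, and 2 fell with array medians. Their leading members, Bbs1 (109, 106 and 114 on the control arrays and 65.5, 77.3 and 85.3 on the 6 h arrays, log2 change -0.54 ± 0.11 (SE), adjusted p = 0.00786) and Bbs2 (-0.42), are parts of the BBSome, the coat that sorts cargo into cilia.

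All calls among genes of cholesterol and fatty acid synthesis were falls. Of 33 measured genes, 0 rose and 16 fell (median log2 change -0.18), 48.5% called against 16.8% of all genes, and 1 lay above 0. The list had 10 called without control replicate 3 and 10 with 6 h replicate 1 left out, and 9 with array medians. Fads1, the delta-5 desaturase of polyunsaturated fatty acids, read 1180, 1260 and 1370 on the control arrays and 747, 789 and 846 on the 6 h arrays (log2 change -0.68 ± 0.07 (SE), adjusted p = 0.00076). Scd, which makes monounsaturated fatty acids, read 2110, 2070 and 1940 on the control arrays and 1220, 1210 and 1440 on the 6 h arrays (log2 change -0.67 ± 0.08 (SE), adjusted p = 0.000982). Dhcr7, the last enzyme of cholesterol synthesis, read 2240, 2420 and 2560 on the control arrays and 1700, 1670 and 1850 on the 6 h arrays (log2 change -0.47 ± 0.07 (SE), adjusted p = 0.00285). For each of the 3 the highest stretched array was below the lowest control array.

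Some of these genes lay below both other times as well. A gene was counted as apart at 6 h where it differed from control, from 2 h and from 24 h in the same direction, all 3 called, and 54 genes (0.376%) met this, 8 above and 46 below. The comparisons with control share the control arrays, so the values are set side by side. At 2, 6 and 24 h, Scd was at -0.36, -0.67 and 0.05, and Fads1 at -0.28, -0.68 and -0.32. Acss2, which makes acetyl-CoA from acetate for lipid synthesis, read 2170, 2350 and 2190 on the control arrays and 1380, 1470 and 1430 on the 6 h arrays (log2 change -0.65 ± 0.06 (SE), adjusted p = 0.000413) and changed by -0.15, -0.65 and -0.43. Below both other times lay also Foxs1, a forkhead factor of pericytes (614, 565 and 639 on the control arrays and 349, 353 and 416 on the 6 h arrays, log2 change -0.70 ± 0.07 (SE), adjusted p = 0.000648), and Pappa, a protease that frees insulin-like growth factors (56.9, 65.4 and 66.7 on the control arrays and 31.3, 30.9 and 41.6 on the 6 h arrays, log2 change -0.88 ± 0.11 (SE), adjusted p = 0.000968, and with normexp -0.55). On the high side Acta1 was 0.30, 0.60 and 0.32, and Col4a4, a basement membrane collagen, 0.27, 0.78 and 0.21 (569, 454 and 509 on the control arrays and 909, 853 and 850 on the 6 h arrays). B3galt2, a galactosyltransferase, and Tsga10 were at 0.57 and 0.55 at 6 h, and Tsga10 at 0.27 with normexp. The count of 54 was 6 without 6 h replicate 1, 20 without 6 h replicate 2 and 12 when the slide was a block.

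**Figure D5:**
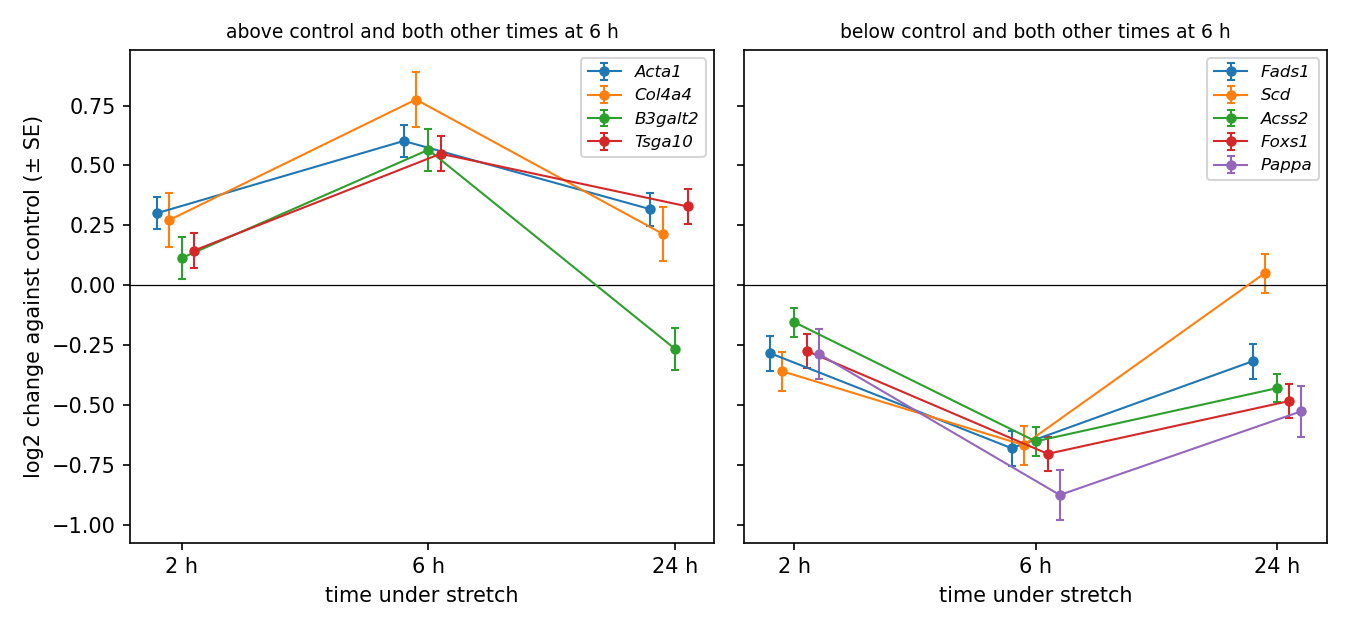
Log2 change against control (vertical axis, ± SE from the model, 3 arrays per group) at 2, 6 and 24 h of stretch for 4 genes above (left) and 5 below (right) control and both other times at 6 h. Scd is at -0.67 at 6 h and 0.05 at 24 h, and Acta1 peaks at 0.60; all times share the same 3 control arrays.

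Called inflammatory genes were mostly lower at 6 h, as were 69.8% of all called genes. Genes that fell made up 31.8% of the cytokine list and 26.1% of the chemokine list, against 11.7% of all genes. The cytokine share counts Il1a, whose values are given below without a test. Of 22 cytokines and interleukins 7 fell and 0 rose, with 4 called without 6 h replicate 1. Tnf, the archetypal inflammatory cytokine, whose probe lies at chr20:3663558-3663617 on rn4, read 240, 211 and 202 on the control arrays and 71.3, 76.8 and 89.3 on the 6 h arrays, 2.76-fold lower without overlap (log2 change -1.46 ± 0.13 (SE), adjusted p = 0.000413). Il1b read 292, 337 and 306 on the control arrays and 185, 194 and 189 on the 6 h arrays (log2 change -0.72 ± 0.13 (SE), adjusted p = 0.00541), and Tslp, an epithelial-type alarm cytokine, 200, 192 and 200 on the control arrays and 129, 146 and 127 on the 6 h arrays (log2 change -0.55 ± 0.08 (SE), adjusted p = 0.00133). Il1a, 1 of the 7, was dim, 43.9, 45.1 and 47.5 on the control arrays and 10.5, 14.7 and 16.2 on the 6 h arrays. It was above background on 3 control arrays and 1 stretched array, and its change of -1.75 became -0.63 with normexp. Among these 6 arrays it passed the filter through the controls alone, where it is high, so its values are given without a test. Of 23 chemokines 6 fell and 1 rose. Ccl3, which attracts monocytes, read 418, 399 and 428 on the control arrays and 140, 172 and 172 on the 6 h arrays, 2.58-fold lower (log2 change -1.37 ± 0.11 (SE), adjusted p = 0.000346), and its neighbour in function Ccl4 90.5, 100 and 89.2 on the control arrays and 40.9, 39.8 and 45 on the 6 h arrays (log2 change -1.15 ± 0.15 (SE), adjusted p = 0.00118, and with normexp -0.73). The NF-kB list had 4 falls of 17 (2 called without control replicate 1, 2 without control replicate 3, 2 without 6 h replicate 1 and 2 with 6 h replicate 2 left out), with a median of -0.08 that was 0.02 with array medians, among them the adhesion molecule Icam1, 1350, 1340 and 1510 on the control arrays and 926, 1010 and 1010 on the 6 h arrays (log2 change -0.51 ± 0.06 (SE), adjusted p = 0.00116). Casp4, the inflammatory caspase, read 1050, 983 and 1050 on the control arrays and 529, 610 and 649 on the 6 h arrays (log2 change -0.79 ± 0.08 (SE), adjusted p = 0.000648). Beside these falls stand the macrophage markers described above, of which 2 of 15 fell (13.3%, against 11.7% of all genes), with a median change of -0.14. Ccl3, Ccl4 and Tnf are also expressed by macrophages, whose part in the result was not tested.

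Interferon-stimulated genes had the highest share of falls of the lists described. Of 30 measured, 0 rose and 16 fell (median log2 change -0.33), that is 53.3% lower against 11.7% of all genes, and 1 lay above 0. The list had 9 called without control replicate 3 and 8 with 6 h replicate 1 left out, and 10 with array medians or quantile normalization. Usp18, which removes the modifier ISG15 from proteins, read 129, 116 and 117 on the control arrays and 59.4, 58.6 and 73.7 on the 6 h arrays (log2 change -0.92 ± 0.17 (SE), adjusted p = 0.00559, and with normexp -0.61). Gbp5, a guanylate-binding protein of inflammasome defence, read 81.7, 74.3 and 73.7 on the control arrays and 35.8, 40.9 and 46.5 on the 6 h arrays (log2 change -0.91 ± 0.10 (SE), adjusted p = 0.000856, and with normexp -0.58). Neither gene overlapped between the groups. Oas1a, a sensor of double-stranded RNA, and Dhx58, a helicase of the RIG-I family, were above background on 1 of the 3 stretched arrays. Among these 6 arrays the 6 h group did not carry Oas1a or Dhx58 through the filter. Their changes of -1.18 and -0.64 are therefore given without a test. Both are counted among the 16 that fell, and their calls were lost without any 1 array except 6 h replicate 2 and when the slide was a block. Of 10 genes of MHC class II and antigen presentation 4 fell and 0 rose (40% lower), with 2 called without control replicate 3, 1 without 6 h replicate 1 and 2 with 6 h replicate 3 left out, and 1 with array medians. RT1-DMb, which helps load peptides, read 396, 448 and 417 on the control arrays and 282, 320 and 282 on the 6 h arrays (log2 change -0.51 ± 0.09 (SE), adjusted p = 0.00471), and Cd74, the invariant chain, 105, 125 and 128 on the control arrays and 82.1, 101 and 78.8 on the 6 h arrays (log2 change -0.45 ± 0.12 (SE), adjusted p = 0.0308, but 0.0957 without control replicate 2, 0.102 without control replicate 3, 0.105 without 6 h replicate 1 and 0.0994 with 6 h replicate 3 left out). Macrophages and other leukocytes express these genes too: 0 of their 15 measured markers lay above 0, the median was -0.14, and a further Ptprc probe read -0.93. Their part in these falls was not tested.

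The promoters of Gbp5 and of Irf7, the master regulator of interferon genes, are shown with the interferon response element in capitals. Irf7 was chosen after its values were seen. Its levels were 2230, 2200 and 2120 on the control arrays and 1420, 1810 and 1440 on the 6 h arrays (log2 change -0.50 ± 0.11 (SE), adjusted p = 0.013). The windows in RefSeq's GRCr8 are chr2:233910749-233911048 on the plus strand for Gbp5 and chr1:205799974-205800273 on the minus strand for Irf7.
Gbp5 promoter: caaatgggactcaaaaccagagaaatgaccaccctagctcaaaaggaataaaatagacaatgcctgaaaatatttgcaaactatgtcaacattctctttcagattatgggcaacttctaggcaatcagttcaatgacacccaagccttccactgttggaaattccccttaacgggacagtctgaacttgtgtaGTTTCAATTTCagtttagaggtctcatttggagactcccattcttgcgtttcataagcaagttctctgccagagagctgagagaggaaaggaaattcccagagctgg
Irf7 promoter: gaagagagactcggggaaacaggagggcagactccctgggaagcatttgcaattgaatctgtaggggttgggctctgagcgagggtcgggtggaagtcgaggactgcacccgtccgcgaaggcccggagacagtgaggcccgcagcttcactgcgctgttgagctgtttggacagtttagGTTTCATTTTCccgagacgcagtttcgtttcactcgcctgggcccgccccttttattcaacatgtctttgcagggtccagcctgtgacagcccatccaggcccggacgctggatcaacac
Each held 1 match, starting 57 and 70 bases before the start site. The element was found in 11 of 23 promoters of the interferon list (47.8%), in 0.863% of all promoters and 0.781% of those of genes tested, in 1.51% of those of genes called lower and 0.186% of those called higher.

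Outside the cell, matrix and protease genes gave more falls than rises, as did all genes together (69.8% of calls). Genes that fell made up 19.5% of the matrix list and 33.3% of the protease list, against 11.7% of all genes. Of 41 matrix and collagen genes 8 fell and 0 rose, with 2 called without control replicate 2, 1 without control replicate 3, 1 without 6 h replicate 1, 2 without 6 h replicate 2 and 4 with 6 h replicate 3 left out. With array medians 2 rose and 2 fell. Col11a1, a fibrillar collagen chain, read 295, 314 and 259 on the control arrays and 177, 207 and 203 on the 6 h arrays (log2 change -0.56 ± 0.10 (SE), adjusted p = 0.00544). Of 30 matrix proteases and plasminogen-system genes 10 fell and 2 rose, with 6 called without 6 h replicate 1, and the median of -0.08 was 0.02 with array medians. F3, tissue factor, which starts coagulation, read 3060, 3160 and 3160 on the control arrays and 1920, 2020 and 2220 on the 6 h arrays without overlap (log2 change -0.61 ± 0.06 (SE), adjusted p = 0.000582). F2rl1, the protease-activated receptor PAR2, was the larger of the 2 that rose, 47.6, 40.8 and 37.9 on the control arrays and 61.1, 53.6 and 68.7 on the 6 h arrays (log2 change 0.54 ± 0.10 (SE), adjusted p = 0.00559), but its change was 0.01 with normexp (adjusted p = 0.943). Among matrix contacts, Itga1, a collagen-binding integrin chain, and Tln2, which links integrins to actin, fell (-0.34 and -0.42), and Ptk2, focal adhesion kinase, rose by 0.34.

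Lists of oxidative phosphorylation, mitochondrial ribosomal and proteasome proteins held few calls. Of 78 oxidative phosphorylation genes 1 was called, Cycs, cytochrome c (21600, 21600 and 20800 on the control arrays and 26900, 25400 and 25500 on the 6 h arrays, log2 change 0.28 ± 0.05 (SE), adjusted p = 0.00355), with 2 called without control replicate 1. A further Cycs probe changed by 0.10. Of 66 mitochondrial ribosomal proteins 2 were called, with 1 called without control replicate 1, 0 without control replicate 2, 0 without control replicate 3, 0 without 6 h replicate 1, 1 without 6 h replicate 2 and 1 with 6 h replicate 3 left out. Of 35 proteasome subunits 1 was called, Psmd8, at 0.14, and it lost the call without any 1 of the 6 arrays. With array medians 7, 9 and 11 genes of these lists rose, in the same order. Other mitochondrial lists lay near the 16.8% called of all genes. Of 27 genes of mitochondrial import and chaperones 4 rose and 1 fell (18.5%), and leaving out control replicate 3 left 1 rise. Of 35 genes of the tricarboxylic acid cycle and mitochondrial regulators 2 rose and 3 fell (14.3%). In glycolysis and the hypoxia response 4 of 36 rose and 4 fell (22.2% called), with 5 called without control replicate 2, 5 without control replicate 3 and 5 with 6 h replicate 1 left out. Aldoc, aldolase C, read 24900, 21600 and 23500 on the control arrays and 14200, 14800 and 16200 on the 6 h arrays (log2 change -0.63 ± 0.08 (SE), adjusted p = 0.000968), and Pfkm, the muscle phosphofructokinase, 7820, 8500 and 7970 on the control arrays and 6230, 6050 and 6220 on the 6 h arrays (log2 change -0.39 ± 0.05 (SE), adjusted p = 0.00124). Ckmt1, a mitochondrial creatine kinase, read 202, 173 and 192 on the control arrays and 125, 141 and 125 on the 6 h arrays (log2 change -0.53 ± 0.09 (SE), adjusted p = 0.00376), and Ppargc1a, the coactivator of mitochondrial genes, fell too (-0.29). Fbxo32, the muscle ubiquitin ligase atrogin-1, read 1290, 1240 and 1200 on the control arrays and 960, 937 and 931 on the 6 h arrays (log2 change -0.40 ± 0.04 (SE), adjusted p = 0.000649).

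Clock genes moved both ways. Of 16, 3 rose and 5 fell, that is 50% called against 16.8% of all genes. The list had 4 called without control replicate 2, 5 without control replicate 3, 3 without 6 h replicate 1, 5 without 6 h replicate 2 and 5 with 6 h replicate 3 left out. With array medians 3 rose and 1 fell. Bmal1, of the positive arm of the clock, read 639, 624 and 640 on the control arrays and 864, 799 and 865 on the 6 h arrays (log2 change 0.41 ± 0.05 (SE), adjusted p = 0.00127). Dbp, an output factor driven by that arm, went down, 3640, 3610 and 3420 on the control arrays and 2310, 2450 and 2230 on the 6 h arrays (log2 change -0.61 ± 0.06 (SE), adjusted p = 0.000582). Nfil3, a repressor at the same D-box sites as Dbp, rose by 0.31. How long the control plates were kept is not given in the labels, and its part in the values of clock genes was not tested. Among 42 cell cycle and mitosis genes 8 fell and 2 rose (23.8% called), with 6 called without control replicate 2, 5 without control replicate 3, 5 without 6 h replicate 1 and 6 with 6 h replicate 2 left out. With array medians 4 rose and 2 fell, and the median of -0.06 was 0.04. Cenpf and Cenpa, proteins of the centromere, fell (-0.41 and -0.40), and a further Cenpf probe changed by -0.14. Of 25 targets of p53 and growth-arrest genes 5 rose and 4 fell (36% called), and Btg2 and Plk2 rose by 0.33 and 0.46.

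The largest fitted falls were in dim probes, and their size differed with the background correction. On all 3 control arrays and no stretched array 25 genes were above background. Among these 6 arrays they passed the filter through the controls alone, where they are high, so their values are given without a test. Spic, a factor of iron-recycling macrophages, read 138, 86 and 31.4 on the control arrays and 12.8, 18.2 and 14.2 on the 6 h arrays, and Actn3, fast-fibre alpha-actinin, read 23.4, 62.5 and 21.4 on the control arrays and 10.9, 8.26 and 7.04 on the 6 h arrays. Klhl29 read 47.2, 32.5 and 27.4 on the control arrays and 11.5, 10.9 and 14 on the 6 h arrays. The fitted log2 changes of -2.27, -1.88 and -1.53 were -1.04, -0.70 and -0.59 with normexp, and the stretched levels are not well above background, so the size of these differences is not settled. No gene was above background on all stretched arrays and on 0 control arrays. The largest fitted rises were also dim. Plcxd2, whose name was taken after its values were seen, was above background on 0 control arrays and 2 stretched arrays, and its change of 1.36 was 0.03 with normexp. Il7r, the interleukin 7 receptor, and Cplx1, complexin 1, were each above background on 1 control array. Their changes of 1.27 and 1.20 were 0.20 and -0.00479 with normexp. Above background on all 6 arrays, Ky, a muscle protein named for kyphoscoliosis, read 125, 124 and 120 on the control arrays and 41.5, 54.5 and 55.7 on the 6 h arrays (log2 change -1.29 ± 0.20 (SE), adjusted p = 0.00237, and with normexp -0.81). Reg3b, a secreted lectin noticed after its values were seen, fell 2.18-fold and was also above background on all 6 arrays. It read 22500, 18600 and 20400 on the control arrays and 7920, 9990 and 10500 on the 6 h arrays (log2 change -1.12 ± 0.21 (SE), adjusted p = 0.00641).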

How the data were processed

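Cardiomyocyte RNA was measured on 12 one-colour Agilent arrays in 4 groups of 3. The deposited intensity values are background-subtracted processed signals that the authors' scanner software Agilent Feature Extraction wrote, version 11.0.1.1 per the file headers (10.7.3.1 per the submitters' processing notes). The log2 values of the deposited series matrix, whose scale agreed in rank with the scanner values, served as an alternative; the steps behind them are not stated.

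Outlier spots were left out, spots of a probe averaged, and log2 intensities set to each array's 75th percentile. A probe was kept where some group had it well above background on each of its 3 arrays; 18997 of 30367 passed, 16961 with a gene name, and the brightest stood for its gene. limma 3.58.1 in R 4.3.3 was fitted to all 12 arrays (8 residual degrees of freedom) and tested on simulated data. Scaling, background (normexp, offset 50), filter, slide, replicate block, probe choice, prior and each array were varied.

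The 68 lists (2051 genes, 1806 tested) and the named genes were chosen with earlier results of these data known. The text names 17 fixed genes, the largest calls, up to 4 called members of each list, the largest changes apart from both other times, and the largest changes of genes above background in 1 group alone. Promoters and their motif matches, on both strands, come from RefSeq's GRCr8 table, and matches are given as shares of all 27457 promoters. AP-1, CRE, EGR, sterol, NRF2 and D-box motifs were scanned too. Among genes called higher their shares were 4.83%, 5.95%, 6.32%, 0.558%, 16.9% and 2.23%. Among genes tested they were 5.03%, 3.11%, 4.97%, 1.18%, 14.7% and 1.84%. The sterol element was in 0 of 22 promoters of the cholesterol and fatty acid list and 1.34% of those called lower. The NRF2 element was in 8 of 28 (28.6%) of the NRF2 list. No genome of the arrays' build rn4 was used.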

Additional observations from a re-analysis of the deposited data

Results flagged for a closer look

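In 7 named genes the change at 6 h had the opposite sign to that at another time, both changes were called, and the direct contrast between the times was called too in limma. All times share the 3 control arrays, and slide 2 held every 24 h array but 1 of the 3 arrays at 6 h, so part of a contrast with 24 h cannot be told apart from the slide. Atp1b2, a sodium pump subunit, was at -0.32 at 6 h and 0.28 at 2 h, a difference of -0.60 (adjusted p = 0.00225). Against 24 h, the mitochondrial creatine kinase Ckmt1 differed by -1.47 (-0.53 at 6 h, 0.93 at 24 h, adjusted p = 2.86e-06) and Mybpc2, fast myosin-binding protein C, by -0.78 (-0.25 and 0.53, adjusted p = 1.68e-05). B3galt2 differed by 0.83 (0.57 and -0.27, adjusted p = 9.67e-05) and 1700001K19Rikl by 0.72 (0.44 and -0.28, adjusted p = 0.000225). Il7r differed by 2.02 (1.27 and -0.75, adjusted p = 0.000378) and Ptger2, a prostaglandin E2 receptor, by 1.19 (0.49 and -0.70, adjusted p = 7.41e-05), and at 6 h these changes were 0.20 and -0.08 with normexp.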

How the results depend on the processing

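The count of 2408 genes was 6855 with spike-in scaling, 1385 with no filter on dim probes, 1600 with the slide as a block, 1350 on slide 1 alone and 1195 to 2083 when arrays were left out in turn. Genes higher (728) were 2074 with array medians, 6808 with spike-in scaling, 410 with no filter, 423 with the slide block, 328 on slide 1 alone and 369 to 620 with an array left out. Genes lower (1680) were 742 with array medians, 1040 with quantile normalization, 47 with spike-in scaling, 975 with no filter, 1022 on slide 1 alone and 826 to 1463 with an array left out. The 54 genes apart from both other times were 20 with normexp, 11 with no filter, 12 with the slide block and 6 to 48 with an array left out. No filter tested 22079 genes in place of 14376, and leaving out arrays left fewer samples; other causes were not tested. With 6 h arrays and controls of the same number the deviations correlated at 0.010, 0.011 and -0.011. No pairing by number shows in these values, which cannot tell whether such samples shared a cell isolation. A replicate block gave 2156 calls. Of 253 named genes called, 72 kept their call in all settings that could test them. Under spike-in scaling 128 lost it, and 84 of the 146 lower genes lay above 0 before the shift of 0.43 was taken off.

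Signs turned in a few. With normexp Cplx1 was at -0.00479, Kcne1 at -0.15, Notch2 at -0.16 and Ptger2 at -0.080. Of genes not called, Atp2a2 was at 0.051 with array medians, 0.00119 with spike-in scaling relative to the shift and 0.066 with the mean of probes, Myh6 at 0.027 with array medians and 0.00518 with quantile normalization, and Gja1 and Nppa at 0.024 and 0.016 with array medians. Dim signal limits the size of changes, and 3 arrays per group limit the precision.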

Other observations

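Lipid mediator genes moved both ways at 6 h: of 16 measured, 3 rose and 3 fell (37.5% called, against 16.8% of all genes), with 2 called without control replicate 3. Ptges, which makes prostaglandin E2, read 56, 54 and 76.1 on the control arrays and 23.9, 28.5 and 42.8 on the 6 h arrays without overlap (log2 change -0.99 ± 0.23 (SE), adjusted p = 0.0163, but 0.0629 without control replicate 3 and 0.0657 with 6 h replicate 1 left out, and with normexp -0.38 (adjusted p = 0.0519)). S1pr1, a receptor for sphingosine-1-phosphate, read 4640, 4280 and 4060 on the control arrays and 6560, 6060 and 6230 on the 6 h arrays (log2 change 0.54 ± 0.07 (SE), adjusted p = 0.00133). For S1pr1 the groups did not overlap.

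Of 22 RGS proteins and phosphodiesterases 4 fell and 1 rose (22.7% called, against 16.8% of all genes), with 8 called without 6 h replicate 2. Of 16 keratin, desmin and lamin genes 2 rose (12.5% called). They were the epithelial keratin Krt18 (12100, 10600 and 12100 on the control arrays and 20000, 18300 and 18200 on the 6 h arrays, log2 change 0.70 ± 0.08 (SE), adjusted p = 0.000968) and Nes, the progenitor filament nestin (log2 change 0.47 ± 0.06 (SE), adjusted p = 0.00116). Of 33 histone and chromatin modifiers 5 fell and 1 rose (18.2% called). H1f0, a linker histone of resting cells, read 12200, 11600 and 11500 on the control arrays and 7460, 8670 and 7970 on the 6 h arrays (log2 change -0.55 ± 0.08 (SE), adjusted p = 0.00143).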
